A study of Mus musculus with 6 samples.

Results

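Matrix metalloproteases are secreted or membrane-bound zinc enzymes that cut collagens, elastin, laminins and other proteins of the extracellular matrix. They are made as inactive precursors, and the tissue inhibitors of metalloproteases (TIMPs) block the active enzymes by binding their catalytic site. The urokinase receptor, encoded by Plaur, holds the protease urokinase at the cell surface, where it turns plasminogen into plasmin, a protease that cuts matrix and can activate some metalloprotease precursors. Macrophages use these enzymes when they cross and remodel tissue. The values described here are those of 10 of the 55487 genes in the deposited tables, taken by symbol: the metalloproteases Mmp2, Mmp8, Mmp9, Mmp12, Mmp13 and Mmp14, the inhibitors Timp1, Timp2 and Timp3, and Plaur. All 10 symbols were found, each in 1 row.

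The libraries came from primitive macrophages, the earliest macrophages of the embryo and precursors of microglia, grown from mouse embryonic stem cells over 12 days in medium with M-CSF, IL-3 and SCF together with VEGF, activin A, BMP-4 and FGF2. There were 3 libraries from wild-type cells and 3 from Ts1Cje cells. The Ts1Cje mouse, used to model Down syndrome, carries an additional copy of a distal part of chromosome 16 joined to chromosome 12, and 0 of the 10 genes lie on chromosome 16. The series asks why Ts1Cje embryos have fewer microglia. The design text speaks of different cells of each genotype, but the labels number the replicates only as lots and do not say whether a lot is a separate stem cell line or differentiation, so p-values reflect only how these samples varied, and that variation may be technical.

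Total counts were 25484294 to 32658148 per library. All 12 macrophage markers were detected in the 6 libraries, with summed levels of 27508 to 38568 TPM (a unit that corrects a level for gene length and depth) in wild-type and 30431 to 44382 TPM in Ts1Cje libraries. Csf1r, the M-CSF receptor, was at 864 ± 339 and 576 ± 35.2 TPM, and Spi1, a transcription factor of macrophages, at 227 ± 44.6 and 254 ± 16.7 TPM (SD, n = 3 each). The most abundant macrophage markers were Lyz2, which encodes lysozyme, and Lgals3, a galectin. Wild-type replicate 1 stood apart on the first principal component, at -88.2 against -18.7 to 38.7 in the other libraries. Markers of neutrophils summed to 0.729 to 3.32 TPM over all libraries, of mast cells to 0.141 to 3.35 TPM, of endothelium to 5.25 to 21.4 TPM and of mesenchymal cells to 6.93 to 36.2 TPM. Retnlg, Lcn2 and Ctsg of the neutrophil list, Cldn5 and Emcn of the endothelial list, Thy1 of the mesenchymal list and 5 of the 8 mast cell markers were at 0 in every library. The leading markers of these lists were Prtn3 and S100a8 (neutrophil), Kit and Cpa3 (mast cell), Kdr and Pecam1 (endothelium) and Col1a1 and Col3a1 (mesenchymal). In cultures measured in bulk, fewer cells of a type and less RNA per cell cannot be told apart.

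Among the 10 genes, inhibitor transcripts far exceeded metalloprotease transcripts, through 1 gene. Timp2, which encodes an inhibitor that also takes part in activating the Mmp2 precursor, had the highest level of the 10 genes, with a median of 967 TPM and a range of 828 to 1807 TPM over the 6 libraries, rank 87 by mean TPM among all genes. Plaur followed, with a median of 82.8 TPM (31.2 to 122), and then Mmp12, the macrophage elastase, with 60.04 TPM (29.6 to 92.3). Mmp13, a collagenase, had a median of 9.997 TPM (0.707 to 13.05) and Timp1, a secreted inhibitor of many metalloproteases, 6.86 TPM (0.266 to 13.2). The other 5 genes had a median near or below 1 TPM: Mmp14, a membrane-bound metalloprotease, 1.17, Mmp8, the neutrophil collagenase, 0.760, Mmp2, a gelatinase, 0.757, Timp3, an inhibitor bound to the matrix, 0.318, and Mmp9, a gelatinase, 0. The ranges of Timp2 and Plaur did not overlap, nor did those of Mmp12 and Mmp13, while each other pair of neighbours in the order by mean TPM overlapped over the 6 libraries.

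**Figure D1:**
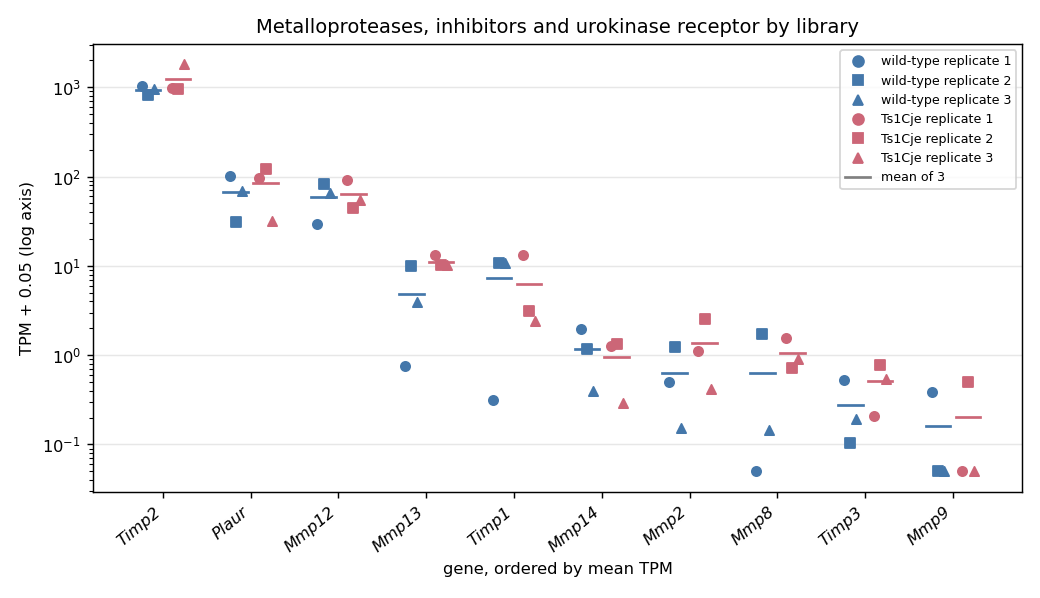
TPM plus 0.05 on a log axis for the 10 genes, ordered by mean TPM, with each point a library, the symbol its replicate number, the colour its genotype and the bar the mean of 3 libraries. Timp2 lies between 828 and 1807 TPM, above all other genes, and wild-type replicate 1 is the lowest library for Mmp12, Mmp13, Timp1 and Mmp8.

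The order of the middle genes depends on the length used. The deposited TPM divide by the length of all annotated exons joined, which for Mmp12 is 7237 bases against 4474 in its longest transcript, a factor of 1.62, and for Plaur 2617 against 2009 bases, a factor of 1.3. With the longest transcript the mean level of Mmp12 became 99.5 in place of 61.5 TPM and that of Plaur 98.3 in place of 75.5 TPM.

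None of the 10 genes passed the test across all genes for a difference between the genotypes. Of the 10, 9 had enough counts to be tested, and Mmp9 did not. By edgeR's quasi-likelihood test with Benjamini-Hochberg adjustment 0 of the 9 passed an adjusted p of 0.05, where 0.00724% of all 13821 genes tested did (1 gene). At an unadjusted p under 0.05 there were 0 of 9, against a background of 5.79%. By limma-voom there was 1, Mmp13, and without wild-type replicate 2 there were 2, Mmp13 and Mmp8. DESeq2 called 0 of the 9, against 0.405%. The log2 fold change, Ts1Cje over wild-type, was above 0 for 7 of the 9 genes, against 49.2% of all genes tested, and its median was 0.44 against -0.01. The smallest adjusted p was 0.807, for Mmp13. Libraries of the genotypes did not overlap for 0 of the 9 genes on the CPM scale (counts per library size), against 6.38% of all genes with Ts1Cje higher and 5.72% with Ts1Cje lower. On the TPM scale they did not overlap for 1 gene, Mmp13, with Ts1Cje higher, against 5.46% higher and 5.66% lower. The 95% interval was narrowest for Timp2, -0.28 to 1.17, and widest for Mmp8, -2.29 to 3.85.

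**Figure D2:**
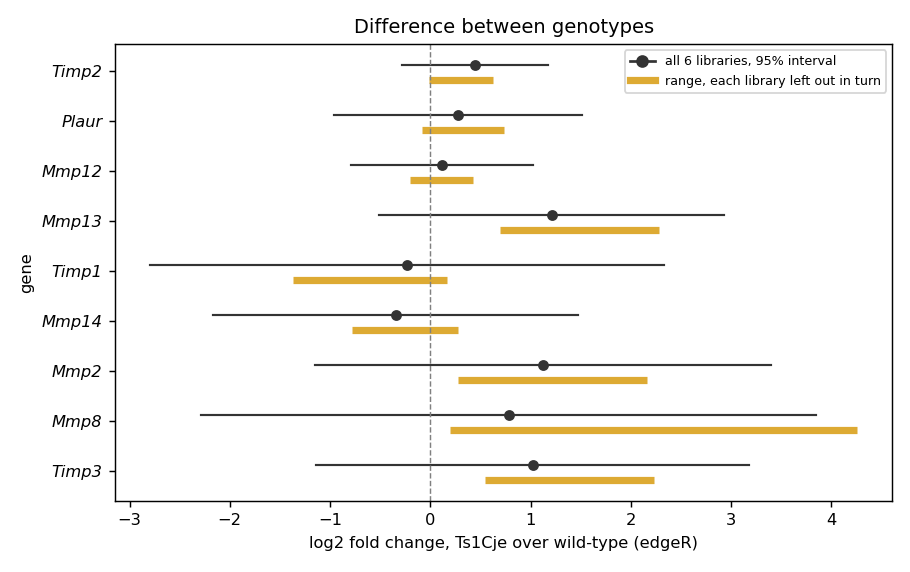
Log2 fold change, Ts1Cje over wild-type, for the 9 tested genes (edgeR), with dots for the fit on all 6 libraries, black lines for the 95% interval and yellow bars for the range when each library is left out in turn. Every black line crosses 0, and the yellow bars of Mmp13, Mmp2, Mmp8 and Timp3 stay above 0, from 0.69 to 2.28 for Mmp13.

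The members Mmp13, Mmp12 and Mmp8 belong to the metalloprotease cluster of chromosome 9. Their promoter windows in the RefSeq table (build GRCm38.p6, 250 bases before to 50 after the annotated start) were searched on both strands for 2 motifs. The first is TGACTCA, the letters bound by AP-1, the dimer of Fos and Jun proteins. The second is AGGAAG, a core of sites bound by ETS factors. The pair is classically described in metalloprotease promoters, and the sequences are shown because the next paragraphs compare these genes. Capitals mark both motifs, and no marked AP-1 match overlaps an AGGAAG match.
Mmp13: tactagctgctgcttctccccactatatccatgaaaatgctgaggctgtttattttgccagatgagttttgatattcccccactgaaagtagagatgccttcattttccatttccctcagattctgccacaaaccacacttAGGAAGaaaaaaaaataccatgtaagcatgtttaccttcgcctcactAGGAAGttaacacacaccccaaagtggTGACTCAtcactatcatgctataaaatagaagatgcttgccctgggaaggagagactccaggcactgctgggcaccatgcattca
Mmp12: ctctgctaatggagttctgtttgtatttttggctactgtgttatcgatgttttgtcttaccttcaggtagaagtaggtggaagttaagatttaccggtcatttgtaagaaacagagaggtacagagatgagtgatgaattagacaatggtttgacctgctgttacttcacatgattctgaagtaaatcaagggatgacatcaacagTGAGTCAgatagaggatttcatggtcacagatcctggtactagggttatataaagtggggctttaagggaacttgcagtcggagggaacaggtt
The Mmp13 window lies at chr9:7272264-7272563 and the Mmp12 window, at the second of its annotated starts, at chr9:7347124-7347423, both on the plus strand. The AP-1 letters stand 35 to 29 bases before the Mmp13 start and 44 to 38 bases before the Mmp12 start. Mmp13 also holds AGGAAG at 109 to 104 and at 62 to 57 bases before its start, and this Mmp12 window holds none. The window at the first Mmp12 start and that of Mmp8 hold no AP-1 letters and 1 match each to the ETS core on the other strand. Among all 32851 promoter windows, 5.2% hold the AP-1 letters, 35.4% the AGGAAG letters and 1.99% both. A match is a description of letters and shows no binding.

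Mmp12 (chromosome 9, 7344381 to 7369499, plus strand, mm10), which degrades elastin, had the highest mean level of the 6 metalloproteases. Its level was 29.6, 82.4 and 65.4 TPM across wild-type replicates 1 to 3, against 92.3, 44.6 and 54.7 TPM across Ts1Cje replicates 1 to 3. The groups overlapped, with wild-type replicate 1 lowest and Ts1Cje replicate 1 highest. Counts were 1811 to 7301 per library, so that counting error was small beside the spread between libraries. Its log2 fold change was 0.12 ± 0.39 (SE), with a 95% interval of -0.79 to 1.02 and an adjusted p of 0.962 (edgeR). It was -0.20 without wild-type replicate 1 and also -0.20 without Ts1Cje replicate 1. Mmp12 made up 74.8% to 93.7% of the summed TPM of these 6 metalloproteases in the 6 libraries, a sum that leaves out Mmp27 and Mmp19, described further on. It shares 157 exonic bases with Mmp1b on the other strand, and Mmp1b had 0 counts in every library.

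Mmp13 (chromosome 9, 7272514 to 7283331, plus strand, 10 exons), the main interstitial collagenase of the mouse, had the smallest p of the 10 genes. Its level was 0.707, 9.91 and 3.86 TPM across wild-type replicates 1 to 3, against 13.05, 10.14 and 10.08 TPM across Ts1Cje replicates 1 to 3. On this scale the genotypes did not overlap, though the gap between 9.91 and 10.08 TPM was narrow. On counts scaled to the library total (CPM with TMM factors) the groups overlapped, with 8.82 CPM in wild-type replicate 2 and 8.79 CPM in Ts1Cje replicate 2. The wild-type libraries varied most, from 16 counts in replicate 1 to 236 in replicate 2, against 236 to 381 counts in Ts1Cje libraries. The log2 fold change was 1.21 ± 0.74 (SE), with a 95% interval of -0.51 to 2.93, an unadjusted p of 0.143 and an adjusted p of 0.807 (edgeR). Leaving out wild-type replicate 1 gave 0.69 and leaving out wild-type replicate 2 gave 2.28, with values above 0 in each of the 6 fits that left out a library. By limma-voom the change was 1.83 (unadjusted p = 0.031, adjusted p = 0.728).

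Mmp8 (chromosome 9, 7558456 to 7568485, plus strand), a collagenase stored by neutrophils, had few reads. It had 0, 36 and 2 counts across wild-type replicates 1 to 3, against 40, 14 and 22 across Ts1Cje replicates 1 to 3, which gave 0, 1.67 and 0.0946 TPM and 1.51, 0.663 and 0.858 TPM. Wild-type replicate 2 was the highest of all libraries and the other wild-type libraries the lowest, so the groups overlapped. The log2 fold change of 0.78 ± 1.32 (SE; adjusted p = 0.918, edgeR) became 4.26 without wild-type replicate 2 and 0.20 without wild-type replicate 1, and it was 2.52 by limma-voom (adjusted p = 0.728). The 0 in wild-type replicate 1 allows up to 3 counts, or 0.121 CPM. The 12 neutrophil markers summed to 1.80, 2.51 and 0.729 TPM across wild-type replicates 1 to 3, against 3.32, 0.800 and 2.29 TPM across Ts1Cje replicates 1 to 3. Cebpe had 0 counts in each wild-type library, against 7, 2 and 3 across Ts1Cje replicates 1 to 3. In Ts1Cje replicate 1 Elane had 20 counts, against 0 elsewhere, Ltf had 4, Ngp 2 and S100a8 2. Mpo, Ctsg, Camp, S100a9, Lcn2 and Retnlg were at 0 in that library. Prtn3 had 8 counts there, against 10 and 12 in wild-type replicates 1 and 2. The part of neutrophils in the Mmp8 values was not tested.

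Within the cluster, 10 metalloprotease genes in 427072 bases (chromosome 9, 7272514 to 7699585), transcripts came from few genes. In order along the chromosome these are Mmp13, Mmp12, Mmp1b, Mmp3, Mmp1a, Mmp10, Mmp8, Mmp27, Mmp20 and Mmp7. Mmp1b, Mmp3, Mmp1a and Mmp7 had 0 counts in all 6 libraries, Mmp20 had 2 counts in 1 library, and Mmp10 reached at most 1.81 TPM. Mmp27 was the other abundant gene of the cluster, at 15.1, 62.1 and 17.9 TPM across wild-type replicates 1 to 3, against 27.9, 17.2 and 83.6 TPM across Ts1Cje replicates 1 to 3. Its highest libraries, wild-type replicate 2 and Ts1Cje replicate 3, belonged to different genotypes, and its log2 fold change was 0.50 ± 0.73 (SE; adjusted p = 0.905, edgeR). Mmp27 was above Mmp12 in Ts1Cje replicate 3 and below it in the other 5 libraries.

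**Figure D3:**
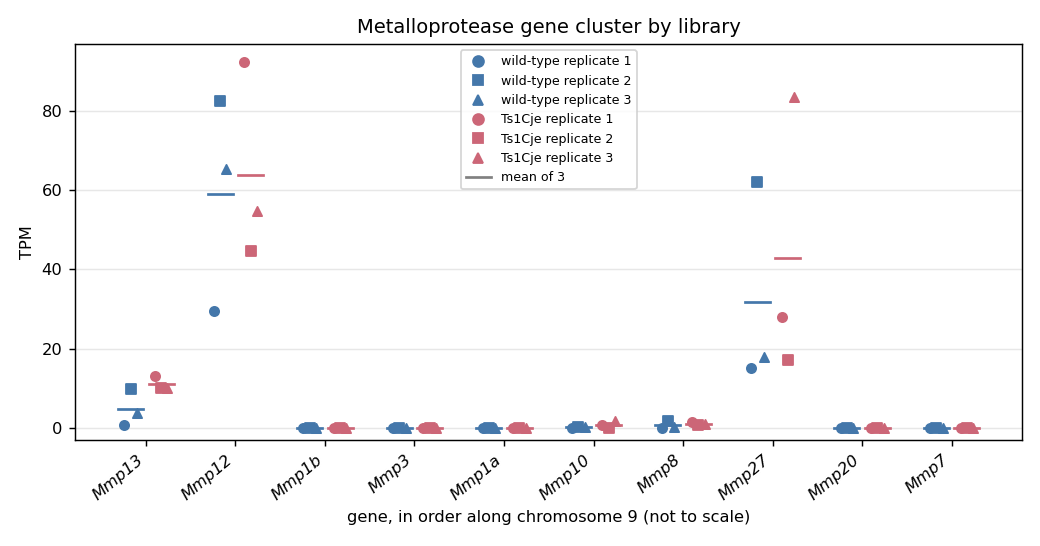
TPM on a linear axis for the 10 metalloprotease genes of the chromosome 9 cluster, in their order along the chromosome (spacing not to scale), with each point a library, colours for genotype, symbols for replicate and bars for the mean of 3. Mmp12 and Mmp27 hold most of the signal, Mmp13 reaches 13.05 TPM, and 4 of the 10 genes are at 0 in every library.

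The gelatinases, which cut denatured collagen and basement membrane collagen, were low. Mmp9 (chromosome 2, 164940780 to 164955850) had 10 counts in wild-type replicate 1, 14 in Ts1Cje replicate 2 and 0 in the other 4 libraries, where 0 allows up to 0.0888 to 0.113 CPM. These counts are 0.334 and 0.454 TPM, and no test was made. Mmp2 (chromosome 8, 92827291 to 92853420) was at 0.456, 1.199 and 0.102 TPM across wild-type replicates 1 to 3, against 1.06, 2.52 and 0.365 TPM across Ts1Cje replicates 1 to 3. The groups overlapped, with Ts1Cje replicate 2 highest at 74 counts and wild-type replicate 3 lowest at 3 counts. The log2 fold change of Mmp2 was 1.12 ± 0.98 (SE), with a 95% interval of -1.15 to 3.40 and an adjusted p of 0.838 (edgeR), and it was 0.27 without Ts1Cje replicate 2 and 2.17 without wild-type replicate 2.

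Mmp14 (chromosome 14, 54431612 to 54445364), the membrane-bound enzyme that activates the Mmp2 precursor together with Timp2, was also low. Its level was 1.90, 1.13 and 0.347 TPM across wild-type replicates 1 to 3, against 1.21, 1.29 and 0.238 TPM across Ts1Cje replicates 1 to 3. Replicate 3 was the lowest library in both genotypes, and the groups overlapped. Its log2 fold change was -0.35 ± 0.78 (SE), with a 95% interval of -2.16 to 1.47 and an adjusted p of 0.938 (edgeR), and it was 0.28 without wild-type replicate 1 and 0.09 without Ts1Cje replicate 3.

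Mmp2, Mmp14 and Timp3 are known from fibroblasts and other connective tissue cells. Markers of such cells were low and uneven. The 11 mesenchymal markers summed to 20.9, 7.75 and 9.66 TPM across wild-type replicates 1 to 3, against 6.93, 36.2 and 7.09 TPM across Ts1Cje replicates 1 to 3. Col1a1, a chain of type I collagen, was at 15.2 TPM in Ts1Cje replicate 2 and 1.38 to 3.60 TPM elsewhere. Col3a1, of type III collagen, was at 6.54 TPM in Ts1Cje replicate 2 and 1.14 to 4.62 TPM elsewhere. Ts1Cje replicate 2 had the highest mesenchymal sum and also the highest Mmp2, Timp3 and Mmp9 of the 6 libraries. Wild-type replicate 1 had the second highest sum and the highest Mmp14. Its Mmp2, 0.456 TPM, was below 1.199 and 1.06 TPM in wild-type replicate 2 and Ts1Cje replicate 1, whose sums were 7.75 and 6.93 TPM. Lum and Pdgfra of the same list were highest in wild-type replicate 1, at 6.81 and 0.955 TPM. They were at 5.25 and 0.0229 TPM in Ts1Cje replicate 2. The part of these cells in the values was not tested.

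**Figure D4:**
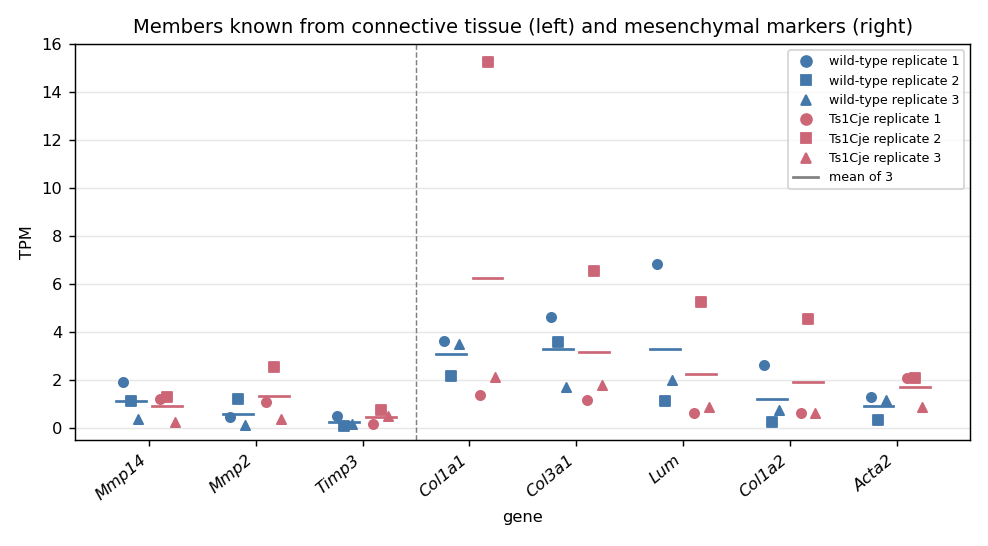
TPM on a linear axis for Mmp14, Mmp2 and Timp3, left of the dashed line, and for the 5 mesenchymal markers with the highest mean TPM, right of it, with each point a library, colours for genotype, symbols for replicate and bars for the mean of 3. Ts1Cje replicate 2 is the highest library for Mmp2, Timp3 and Col1a1, the last at 15.2 TPM. Lum is highest in wild-type replicate 1, at 6.81 TPM.

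Timp2 (chromosome 11, 118301069 to 118355740, minus strand) is the highest member, and its promoter is shown beside those above for its different base composition.
Timp2: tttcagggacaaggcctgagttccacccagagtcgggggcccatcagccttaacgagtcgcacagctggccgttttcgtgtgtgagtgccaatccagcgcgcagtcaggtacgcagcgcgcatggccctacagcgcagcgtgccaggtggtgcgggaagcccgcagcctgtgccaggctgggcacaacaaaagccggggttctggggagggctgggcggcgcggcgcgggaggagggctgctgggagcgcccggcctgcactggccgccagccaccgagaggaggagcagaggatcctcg
The window lies at chr11:118355362-118355661 on the minus strand and holds neither motif. It contains 25 CpG and 68.7% G or C, against 1 CpG and 43.7% in the Mmp13 window and 3 and 40.7% in the Mmp12 window, with medians of 7 CpG and 52.7% over all windows. Timp3 was like it, with 24 CpG and 67.0%.

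Timp2 was even across libraries except 1. Its level was 1028, 828 and 952 TPM across wild-type replicates 1 to 3, against 973, 960 and 1807 TPM across Ts1Cje replicates 1 to 3. Ts1Cje replicate 3 stood alone, and the other Ts1Cje libraries lay within the wild-type range. Means were 936 ± 101 TPM in wild-type and 1247 ± 485 TPM in Ts1Cje (SD, n = 3). The log2 fold change was 0.44 ± 0.31 (SE), with a 95% interval of -0.28 to 1.17 and an adjusted p of 0.819 (edgeR), and it was -0.01 without Ts1Cje replicate 3. That library also had the highest Lyz2, 24366 TPM, and wild-type replicate 1, second in Timp2, was second in Lyz2 at 23025 TPM. The sum of the other 11 macrophage markers had another order, with 20016 TPM in Ts1Cje replicate 3, the third highest, and 15542 TPM in wild-type replicate 1, the lowest. Single markers differed. Cd68 was highest in Ts1Cje replicate 3, at 6909 TPM, and second in wild-type replicate 1, at 6495 TPM. Lgals3 was lowest in wild-type replicate 1, at 4316 TPM. Csf1r was at its lowest, 538 TPM, in Ts1Cje replicate 3. The part of these differences in the Timp2 values was not tested. Cep295nl, inside the Timp2 span on the same strand, shares 0 exonic bases with it and had 5 to 59 counts.

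Timp1 (chromosome X, 20870166 to 20874735, plus strand), an inhibitor secreted on activation by many cell types, varied most of the 10 genes with counts in every library. It was at 0.266, 10.6 and 10.9 TPM across wild-type replicates 1 to 3, against 13.2, 3.10 and 2.34 TPM across Ts1Cje replicates 1 to 3, from 2 to 128 counts. The ratio of the highest to the lowest library was 49.6, and the high libraries were wild-type replicates 2 and 3 and Ts1Cje replicate 1. Its log2 fold change was -0.23 ± 1.10 (SE), with a 95% interval of -2.79 to 2.34 and an adjusted p of 0.974 (edgeR). Its sign changed with the method, at 0.47 by limma-voom, and in 4 of the 6 fits that left out a library. Timp1 lies within Syn1, which is read from the other strand, shares 0 exonic bases with it and had 88 to 377 counts. The Timp1 promoter window (chrX:20869916-20870215) holds the ETS core 3 times and no AP-1 letters as searched.

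Timp3 (chromosome 10, 86300372 to 86349506, plus strand), which also inhibits ADAM proteases, was at 0.479, 0.0551 and 0.141 TPM across wild-type replicates 1 to 3, against 0.157, 0.733 and 0.488 TPM across Ts1Cje replicates 1 to 3. The groups overlapped, with counts of 4 to 52. The log2 fold change was 1.02 ± 0.93 (SE), with a 95% interval of -1.14 to 3.18 and an adjusted p of 0.838 (edgeR). Leaving out wild-type replicate 1 gave 2.23, and leaving out wild-type replicate 2 gave 0.55. Timp3 shares 1733 of its 8144 exonic bases with Syn3 on the other strand, which had 0 to 12 counts. Whether counting used the strand is not stated, so how many Timp3 reads this overlap affects is not known.

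Among the members, the balance of inhibitors to proteases differed more between libraries than between genotypes. Summed TPM of the 6 metalloproteases was 32.98, 96.3 and 69.8 across wild-type replicates 1 to 3, against 109, 59.7 and 66.2 across Ts1Cje replicates 1 to 3. The 3 inhibitors summed to 1029, 839 and 963 TPM and to 987, 964 and 1809 TPM, of which Timp2 made up 98.6% to 99.9%. The ratio of inhibitors to proteases was 31.2, 8.71 and 13.8 across wild-type replicates 1 to 3, against 9.04, 16.1 and 27.3 across Ts1Cje replicates 1 to 3. The highest ratio, in wild-type replicate 1, went with its low Mmp12, and the next, in Ts1Cje replicate 3, with its high Timp2. Mmp27 and Mmp19 are left out of the protease sum. In Ts1Cje replicate 3 they were at 83.6 and 29.6 TPM, beside a sum of 66.2 TPM, so the ratio depends on the genes listed. These sums are descriptions of RNA and were not tested, and they say nothing of active enzyme, which also depends on cleavage of the precursors.

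**Figure D5:**
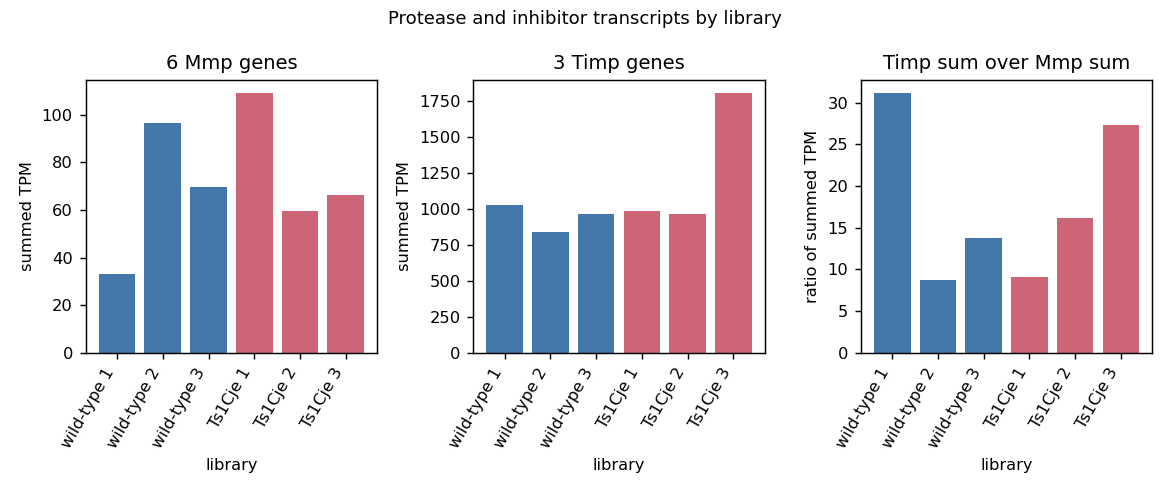
Bars from 0 for each library, coloured by genotype, of the summed TPM of the 6 metalloproteases (left), the summed TPM of the 3 inhibitors (middle) and the ratio of inhibitor to protease sums (right). The ratio runs from 8.71 to 31.2 in wild-type and from 9.04 to 27.3 in Ts1Cje libraries, so the groups overlap. Mmp27 and Mmp19 are not part of the metalloprotease sum.

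Plaur, the urokinase receptor (chromosome 7, 24462484 to 24475968, plus strand), is shown with its promoter, the third of the 3 members with the AP-1 letters among the 8 members matched in the RefSeq table.
Plaur: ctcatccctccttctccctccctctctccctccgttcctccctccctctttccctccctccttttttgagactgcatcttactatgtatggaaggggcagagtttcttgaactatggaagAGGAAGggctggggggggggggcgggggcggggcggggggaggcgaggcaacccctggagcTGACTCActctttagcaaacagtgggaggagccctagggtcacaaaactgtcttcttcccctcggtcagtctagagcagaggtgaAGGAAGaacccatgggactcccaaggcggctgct
This window, chr7:24462233-24462532 on the plus strand, has the AP-1 letters 69 to 63 bases before the start and AGGAAG at 130 to 125 bases before it and again 17 to 22 bases into the transcript.

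Plaur was at 102, 31.2 and 68.6 TPM across wild-type replicates 1 to 3, against 97.0, 122 and 31.4 TPM across Ts1Cje replicates 1 to 3. Each genotype had 1 low library near 31 TPM, wild-type replicate 2 and Ts1Cje replicate 3, and the groups overlapped. Its log2 fold change was 0.28 ± 0.53 (SE), with a 95% interval of -0.96 to 1.52 and an adjusted p of 0.928 (edgeR), and it was -0.07 without wild-type replicate 2 and -0.08 without Ts1Cje replicate 2. Those libraries with little Plaur were the 2 with the most Mmp27. Plau, which encodes urokinase itself, was at 67.3, 39.7 and 124 TPM across wild-type replicates 1 to 3, against 183, 158 and 88.0 TPM across Ts1Cje replicates 1 to 3. Wild-type replicate 3 lay above Ts1Cje replicate 3, so the groups overlapped, and the log2 fold change was 0.89 ± 0.41 (SE; adjusted p = 0.792, edgeR). Ligand and receptor had their lowest level in the same wild-type library and in the same Ts1Cje library.

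The wider system was taken from 8 lists with 89 genes, of which 53 were tested. In these lists 0 genes passed edgeR over all genes, 4 of 53 had an unadjusted p under 0.05, against 5.79% of all genes tested, and 26 of 53 had a positive log2 fold change, against 49.2%. Both shares are near those of all genes. Among the 17 other metalloproteases, 2 of the 4 tested were positive, and the median was 0.24. Mmp19, a metalloprotease of basement membranes, was at 19.0, 18.5 and 23.3 TPM across wild-type replicates 1 to 3, against 29.5, 33.03 and 29.6 TPM across Ts1Cje replicates 1 to 3. The genotypes did not overlap, with Ts1Cje higher, on the CPM scale too. Its log2 fold change was 0.61 ± 0.16 (SE) with an unadjusted p of 0.00554 and an adjusted p of 0.792 (edgeR), between 0.53 and 0.70 when each library was left out. Mmp11, known as stromelysin-3, had 12, 13 and 12 counts across wild-type replicates 1 to 3, against 2, 0 and 0 across Ts1Cje replicates 1 to 3 (unadjusted p = 0.00629, adjusted p = 0.792, edgeR). The ratio of wild-type to Ts1Cje counts per library size was 21.3 (exact 95% interval 5.5 to 183). This interval covers counting error at most, as it takes each count as a separate fragment, which may not hold.

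Among 10 other inhibitors 3 were tested, and 0 of them passed. Serpine2, an inhibitor of thrombin, plasmin and urokinase, was abundant and uneven, at 218, 233 and 39.1 TPM across wild-type replicates 1 to 3, against 56.3, 80.0 and 11.4 TPM across Ts1Cje replicates 1 to 3. Wild-type replicate 3 lay within the Ts1Cje range, and the log2 fold change was -1.78 ± 0.79 (SE; adjusted p = 0.792, edgeR). Reck, a membrane-anchored inhibitor of metalloproteases, had a log2 fold change of -0.16 ± 0.48 (SE; adjusted p = 0.954, edgeR). Among 11 genes of plasminogen activation at the surface, 6 of the 8 tested were positive (median 0.18). Plgrkt, a plasminogen receptor, had -0.45 ± 0.21, Itgb1, an integrin chain, 0.21 ± 0.16 and Anxa2, an annexin that binds plasminogen, 0.09 ± 0.18 (SE).

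Proteases that activate metalloproteases were represented by the convertases Furin and Pcsk7, the only 2 of 7 tested, at log2 fold changes of 0.12 ± 0.26 and 0.27 ± 0.15 (SE). Among 13 ADAM and ADAMTS genes, 5 of the 9 tested were positive (median 0.07). Adam8, a sheddase of myeloid cells, was at 720 ± 263 TPM in wild-type and 945 ± 366 TPM in Ts1Cje (SD, n = 3), with a log2 fold change of 0.40 ± 0.35 (SE). Adam9 had -0.07 ± 0.15, Adam10, the sheddase of Notch receptors, -0.29 ± 0.14 and Adam15 0.35 ± 0.16 (SE). Among 7 surface proteins, 3 of the 5 tested were positive (median 0.16). Mrc1, the mannose receptor, which also takes up collagen fragments, had 0.34 ± 0.18 at 622 and 781 mean TPM, and Bsg, an inducer of metalloproteases, -0.23 ± 0.19 (SE). Among 10 matrix genes, 6 of the 9 tested were positive (median 0.35). Spp1, osteopontin, a secreted substrate of several metalloproteases, was the highest of them at 22802 ± 7634 and 29026 ± 8112 TPM (SD, n = 3), with a log2 fold change of 0.35 ± 0.33 (SE). Fn1, fibronectin, had 0.69 ± 0.52, Col1a1 0.99 ± 0.83 and Col4a1, a chain of basement membrane collagen, -0.30 ± 1.18 (SE). No gene named in this paragraph passed, with adjusted p values of 0.792 to 0.968 (edgeR).

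Among 14 factors known to act on metalloprotease genes, 2 of the 13 tested were positive (median -0.32). Ets2, an ETS factor encoded in the segment of chromosome 16 in extra copy, was at 14.97, 12.9 and 21.1 TPM across wild-type replicates 1 to 3, against 36.0, 28.2 and 27.4 TPM across Ts1Cje replicates 1 to 3. The genotypes did not overlap, with Ts1Cje higher, and the log2 fold change was 0.91 ± 0.21 (SE; unadjusted p = 0.00278, adjusted p = 0.792, edgeR). Fos, a subunit of AP-1, was at 1504, 1255 and 449 TPM across wild-type replicates 1 to 3, against 371, 682 and 456 TPM across Ts1Cje replicates 1 to 3, with a log2 fold change of -1.10 ± 0.45 (SE; unadjusted p = 0.0409, adjusted p = 0.792, edgeR). Its groups overlapped through wild-type replicate 3. Jun, its partner, had -0.66 ± 0.34 (SE; adjusted p = 0.792, edgeR). Of the 3 members with AP-1 letters, Mmp13 was lowest in the library with the highest Fos and Jun, wild-type replicate 1, as was Mmp12, while Plaur was at its second highest there. Mmp8 and Timp1, whose windows hold no AP-1 letters, were also lowest in that library. The part of AP-1 in these values was not tested.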

How the data were processed

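RNA was sequenced from 6 libraries, and the authors deposited raw counts per gene and TPM per gene for each. Per the submitters' processing notes the tools were HISAT2 2.1.0, featureCounts 1.6.3, Trimmomatic 0.38 and FastQC 0.11.7, on the build mm10. Whether counting used the strand is not stated there. The deposited TPM use the joined exons of GENCODE M21 as gene length, checked on the members. Counts of 1 to 50 were even in 61.5% of cases, so that single counts may not be separate fragments. Intervals from counts treat them as separate, so they cover counting error at most. Groups were taken from the titles.

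Genotypes were compared by the quasi-likelihood test of edgeR 4.0.16 (R 4.3.3) on a model of genotype alone, with filterByExpr (count minimum 10, total minimum 15), TMM factors and Benjamini-Hochberg adjustment over 13821 genes at a threshold of 0.05. The standard error is the log2 fold change divided by the root of F, and 95% intervals use the test's degrees of freedom. Levels between genes are compared in TPM. The fit was tested on simulated data. Alternatives were other scalings and filters, DESeq2 1.42.0, limma 3.58.1 (voom, and log2 TPM), a block for the replicate number, and leaving out each library.

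The members and lists were chosen with earlier results of these data known. The text names all members, in each pathway list the 2 tested genes with the smallest p and the 2 with the highest mean TPM, in each marker list the 2 detected genes with the highest mean TPM, genes that overlap a member, and Csf1r, Spi1 and Ets2; 1 gene that this rule names is not reported here. The other cluster and marker genes named were chosen after their values were seen.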

Additional observations from a re-analysis of the deposited data

How the results depend on the processing

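Of the members 0 passed the threshold under each of the 17 alternatives, and 0 of the pathway genes did. Over all genes 1 gene passed, against 56 by DESeq2, 3 with no filter on low counts, 0 with the replicate number as a block, and 1 to 6 when each library was left out, with 6 without wild-type replicate 3. Whether same-numbered libraries belong together is not stated. They deviated from their group means with correlations of -0.176 to -0.0451, and 0 of 6 libraries correlated best with their own number. With 3 libraries in each genotype, these correlations cannot show whether same-numbered libraries were handled together. Members whose groups do not overlap numbered 0 on the CPM scale, 1 (Mmp13) on the TPM scale, and 0 to 2 when each library was left out. With 2 libraries against 3, the groups of 18.6% to 36.3% of all genes tested do not overlap, and of 18.6% without wild-type replicate 2, where the count of members was 2 of 9.

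Of 148 log2 fold changes of members under alternatives 133 kept their direction and 15 reversed, and all 148 stayed short of the threshold. Timp1 reversed from -0.23 to 0.47 by limma-voom, 0.42 on log2(TPM + 0.1) and 0.053 on log2(TPM + 1), with or without a filter; the cause was not tested. When each library was left out, ranges were -1.37 to 0.17 for Timp1, -0.20 to 0.43 for Mmp12, -0.78 to 0.28 for Mmp14, -0.0077 to 0.63 for Timp2 and -0.080 to 0.73 for Plaur. For genes outside the members that reversed, they were -0.54 to 1.42 for Mmp27, -0.61 to 0.15 for Reck, -0.041 to 0.19 for Anxa2, -0.084 to 0.35 for Furin, -0.20 to 0.015 for Adam9, -0.77 to 1.47 for Col1a1 and -0.86 to 3.00 for Col4a1. Col4a1 was also reversed by limma-voom (1.37), on log2(TPM + 1) (1.03), on log2(TPM + 0.1) (1.30) and with the replicate block (1.78). With lengths of the longest transcript, an alternative chosen after seeing the data, the ratio of mean Mmp12 to mean Plaur TPM moved from 0.815 to 1.01. Members with an unadjusted p under 0.05 numbered 0, against 1 (Mmp13) by limma-voom, with no filter on low counts and on log2(TPM + 1) with a filter. Mmp13 was at 1.75 and Mmp8 at 2.35 with the replicate block. Without reversing, leaving out 1 library moved Adam8 to 0.090 (Ts1Cje replicate 1) or 0.64 (wild-type replicate 2), Spp1 to 0.10 and Jun to -0.36 (wild-type replicate 1), Fn1 to 0.20 (Ts1Cje replicate 2) or 1.07 (Ts1Cje replicate 1), Bsg to -0.12 (wild-type replicate 2) or -0.37 (Ts1Cje replicate 3), Plgrkt to -0.28 (Ts1Cje replicate 1), and Plau to 0.57 (wild-type replicate 2) or 1.39 (wild-type replicate 3). Mmp2, Mmp8, Mmp9, Mmp14 and Timp3 had under 100 counts in every library.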

Other observations

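The members varied between libraries of 1 genotype more than most genes of like level. The standard deviation of log2 CPM within genotype (with 0.1 added, pooled over both genotypes) was set beside that of the 200 tested genes nearest in mean level. It was 1.90 for Timp1, above 99.0% of its neighbours, 0.65 for Mmp12 and 0.92 for Plaur, each above 97.5%, and 1.28 for Mmp13, above 96.5%. For Mmp14, Mmp8, Mmp2, Timp2 and Timp3 the shares were 87.0%, 84.0%, 82.0%, 80.5% and 77.5%. The median of the neighbours was 0.18 for Mmp12, 0.21 for Plaur and 0.66 for Timp1. These are descriptions of 6 libraries, with 3 in each genotype.

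The high and low libraries were not the same for every gene. Wild-type replicate 1 was the lowest library for 4 of the 10 genes (Mmp12, Mmp13, Mmp8 and Timp1) and the highest for Mmp14. Ts1Cje replicate 2 was the highest for 4 (Mmp2, Mmp9, Timp3 and Plaur), Ts1Cje replicate 1 for 3 (Mmp12, Mmp13 and Timp1) and Ts1Cje replicate 3 for Timp2 alone. Wild-type replicate 2 was the lowest for 3 (Plaur, Timp2 and Timp3) and the highest for Mmp8.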
